A study of Anas platyrhynchos with 3 samples.

Results

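The genes described here encode receptors for neurotransmitters and for extracellular purines: glutamate, GABA, glycine, acetylcholine, the monoamines serotonin, noradrenaline, adrenaline and dopamine, ATP, ADP and adenosine. They were the 99 of 14938 rows of the bill skin table whose gene symbol matched the naming pattern of these receptor families. The pattern uses no measured value, but it was set with earlier results of these data known. All 98 receptor rows fell into 15 families. The remaining row, GRID2IP, encodes a scaffold protein that binds a delta glutamate receptor and matched the pattern by its name only. Another 11 rows without a symbol carry receptor names in the current Pekin duck gene table. They are not among the 99, and 1 of them, P2RY2, had a mean of at least 1 FPKM.

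The tissue was bill skin of Pekin duck (Anas platyrhynchos) embryos at embryonic day 24 to 26, dissected after pipping through the inner membrane of the shell, with 24 to 48 hours left until hatching. Eggs were kept at 37 °C, and 1 group was sampled in 3 biological replicates with no treatment named. The labels do not say whether a replicate is 1 embryo or several, so the spread between replicates may not be the spread between single embryos. It also includes technical spread. With 1 group, receptor genes could be compared with one another and with other genes inside each library, and not between conditions. The series asks whether the lamellar cells of Pacinian and Meissner corpuscles, the touch end organs of this skin, sense touch, and the receptor genes bear on which chemical signals the skin as a whole could receive.

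Receptors of this kind are of 2 sorts. Ligand-gated ion channels, such as the P2X, nicotinic, GABA-A, glycine and ionotropic glutamate receptors, are assembled from several subunits and pass ions when the transmitter binds. G protein-coupled receptors, such as the P2Y, adenosine, muscarinic, adrenergic, dopamine and most serotonin receptors, act through G proteins on second messengers. In skin, ATP is released by keratinocytes and other cells on mechanical stress, extracellular enzymes break it down to adenosine, and P2 and adenosine receptors read both.

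Levels are given in FPKM (fragments per kilobase of gene length at equal library depth). They can be compared between genes as far as the gene lengths used are right, and the annotation is not given in the sources used. Among receptor rows with reads these lengths ranged from 630 bases for CHRNA10 to 15183 for CHRNA9. Standard errors and p-values below cover spread between replicates and not error in length. Replicates 1, 2 and 3 were sequenced to 32247700, 30630039 and 25268141 counted reads. A gene was said to be over the minimum if it had at least 1 FPKM in all 3 libraries. The median of the genes over the minimum, called the median gene here, was at 13.3, 13.1 and 13.3 FPKM. Of the skin markers measured, 8 of 9 keratinocyte and 9 of 11 fibroblast genes lay above the median gene, as did 4 of 10 Schwann and lamellar, 2 of 13 sensory neuron, 2 of 8 Merkel cell, 1 of 10 skeletal muscle, 3 of 8 smooth muscle, 2 of 11 endothelial and 1 of 5 thrombocyte genes, while the 4 leukocyte and 3 melanocyte genes over the minimum, of 11 and 9, lay below it (limma's moderated test). These counts are out of the markers measured, and those under the minimum, 7 of them sensory neuron and 7 skeletal muscle genes, were not tested. Of all 10605 genes over the minimum, 43.7% lay above the median gene and 43.6% below it. In whole skin, fewer cells of a type and less RNA per cell cannot be told apart.

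Transcripts of most receptor genes were scarce. Of the 99 rows, 18 (18.2%) were over the minimum, against 71.0% of all rows of the table. The median level was 0.151 FPKM over the 99 rows and 6.94 FPKM over all rows. At least 10 reads in every library were counted for 52 of them, against 82.0% of all rows. In 18 there were at most 3 reads in every library, against 8.78% of all rows, and 2 of these, the GABA-A subunit gene GABRA6 and the muscarinic receptor gene CHRM5, had no read at all. Over the minimum were 9 of 51 ion channel subunits and 9 of 47 G protein-coupled receptors. The P2X, P2Y and adenosine families had 7 of 18 and the other rows 11 of 81, and no test was made between these shares.

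**Figure D1:**
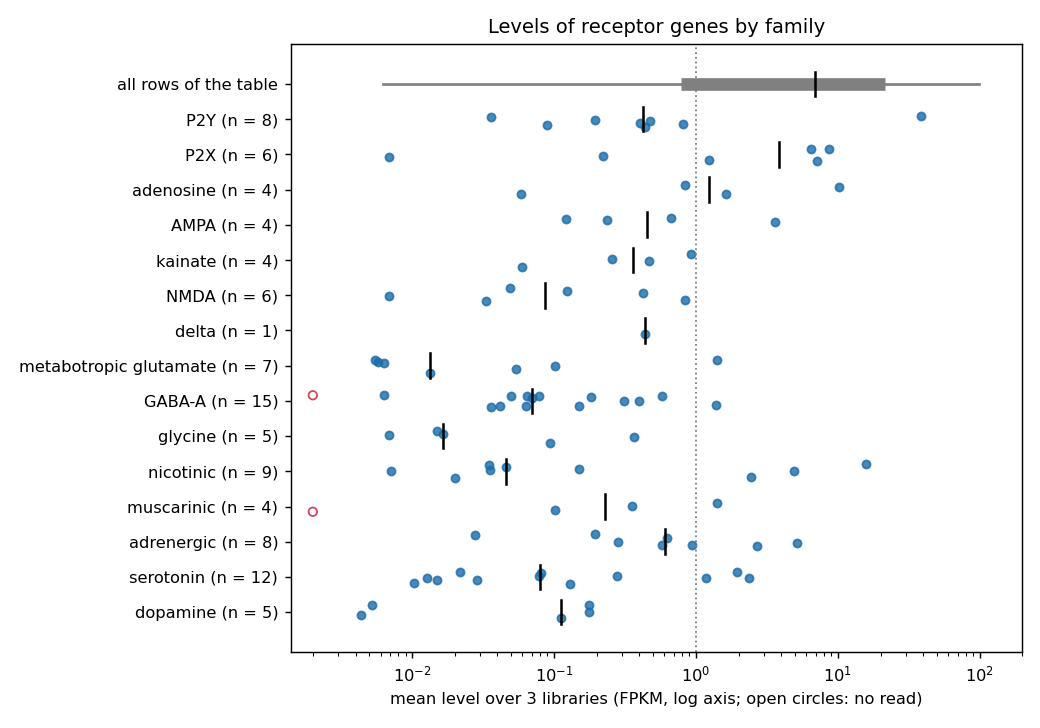
Mean level over the 3 libraries of each receptor gene (points), by family, in FPKM on a log axis, with the family's median as a black line, the dotted line at 1 FPKM, and open circles for the 2 genes with no read. In the top row the thick bar spans percentiles 25 to 75 of all rows of the table, the thin line percentiles 5 to 95, and the black line is their median, 6.94 FPKM; the P2X family has the highest median of the receptor families, 3.88 FPKM.

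Set against the median gene of each library, 1 of the 18 receptor genes over the minimum lay above it, 16 lay below it and CHRNA10 was not apart from it (limma's moderated test, adjusted p under 0.05 over all genes tested). Of all 10605 genes tested, 43.7% lay above and 43.6% below. The 81 rows under the minimum were not tested. The gene above was P2RY1.

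P2RY1 encodes a G protein-coupled receptor that binds ADP and, more weakly, ATP, and raises intracellular calcium through Gq. It was at 38.0, 38.8 and 39.1 FPKM in replicates 1, 2 and 3, from 2023, 2021 and 1691 reads. The libraries were nearly level, with a coefficient of variation of 1.45% where counting error alone gives 2.29%. P2RY1 lay 2.91-fold above the median gene (log2 1.54 ± 0.09 SE, limma adjusted p = 9.9e-06, above it in 3 of 3 libraries), at the 86.0th percentile of all rows. It made up 29.1, 25.3 and 33.2% of the summed FPKM of the 99 rows.

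The other P2Y genes were far lower. P2RY11 followed at 0.817 ± 0.286 FPKM (SD, n = 3), 47.3-fold below P2RY1, and the ranges of the pair did not overlap. P2RY14, a receptor for UDP-glucose, was at 0.475 ± 0.285, P2RY13, an ADP receptor, at 0.440 ± 0.116, and P2RY6, a UDP receptor, at 0.406 ± 0.207. Neighbours in the order of these 4 had overlapping ranges. P2RY8 was at 0.195 ± 0.0679 FPKM, P2RY12, the ADP receptor of mammalian platelets and microglia, had 5, 25 and 4 reads, and the pyrimidine receptor gene P2RY4 had at most 2. In the current duck gene table P2RY14, P2RY13, P2RY12 and P2RY1 lie close together on 1 chromosome, with at most 4 other protein-coding genes between neighbours, so the highest of all receptor genes stands beside 3 that were under the minimum. There P2RY12 and P2RY13 overlap each other, and both and P2RY14 overlap MED12L, so reads of these could be assigned to another gene, whereas nothing overlaps P2RY1. P2RY2, the ATP and UTP receptor, which is outside the 99 rows, was at 4.48 ± 0.443 FPKM.

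P2X subunits form ATP-gated cation channels, and 4 of the 6 genes were over the minimum. P2RX1, known from smooth muscle and mammalian platelets, was at 5.34, 10.8 and 9.81 FPKM, so replicate 1 was lower than the others. P2RX4, a widely expressed subunit, was at 6.76, 7.01 and 7.50 FPKM, with a coefficient of variation of 5.33% where counting error gives 4.79%. P2RX6, a subunit that works mainly in company with others, was at 8.01, 8.85 and 2.70 FPKM, with replicate 3 low. The ranges of these 3 overlapped, and P2RX4 exceeded P2RX6 in 1 of 3 libraries.

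P2RX7, the low-affinity ATP receptor of immune and epithelial cells, followed at 1.20, 1.16 and 1.37 FPKM. Its range did not overlap that of P2RX6, and its neighbour on the chromosome, P2RX4, was higher in every library. P2RX5 was at 0.222 ± 0.0955 FPKM, and P2RX2, a subunit of mammalian sensory neurons, had at most 1 read, where 3 reads make 0.0623 FPKM at the lowest depth. P2RX3 was not analysed here.

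Of these, P2RX4 was 1.86-fold (log2 -0.89 ± 0.09 SE, limma adjusted p = 0.00013) and P2RX7 9.94-fold below the median gene (log2 -3.31 ± 0.09, adjusted p = 1.1e-06), each in 3 of 3 libraries. P2RX1 was 1.59-fold below (log2 -0.67 ± 0.21, adjusted p = 0.021), and P2RX6 2.27-fold below (log2 -1.18 ± 0.33, adjusted p = 0.015). The call of P2RX1 was lost without replicate 1 (adjusted p = 0.0575), and those of P2RX1 and P2RX6 at a minimum of 0.1 FPKM (adjusted p = 0.285 and 0.0871). Without a minimum, P2RX4 and P2RX6 were not apart from the median gene (limma adjusted p = 0.407 and 0.364). Nor was P2RX1, which changed direction there (log2 0.13, limma adjusted p = 0.6). In the current gene table LRRC74B overlaps P2RX6, and whether counting used the strand is not given in the sources used here.

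Adenosine receptors were led by ADORA1, which couples to Gi and lowers cyclic AMP, at 11.6, 8.59 and 10.4 FPKM. It was the third highest of the 99 rows and 1.31-fold below the median gene (log2 -0.38 ± 0.11 SE, limma adjusted p = 0.017). That call was lost without replicate 2 (adjusted p = 0.0759) or 3 (0.062), and without a minimum, where the median gene is lower, ADORA1 lay above it (log2 0.42, adjusted p = 0.0215). ADORA2A, which couples to Gs, was at 2.33, 1.33 and 1.20 FPKM, below ADORA1 in every library and 8.06-fold below the median gene (limma adjusted p = 1.4e-05). Its reads were more than those of ADORA1 in each library, 949, 531 and 396 against 499, 362 and 363. The gene models are of 12890 and 1365 bases, so its place below ADORA1 rests on these lengths. ADORA2B was at 0.608, 1.27 and 0.641 FPKM, overlapping the range of ADORA2A, and ADORA3 had 0, 6 and 3 reads.

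**Figure D2:**
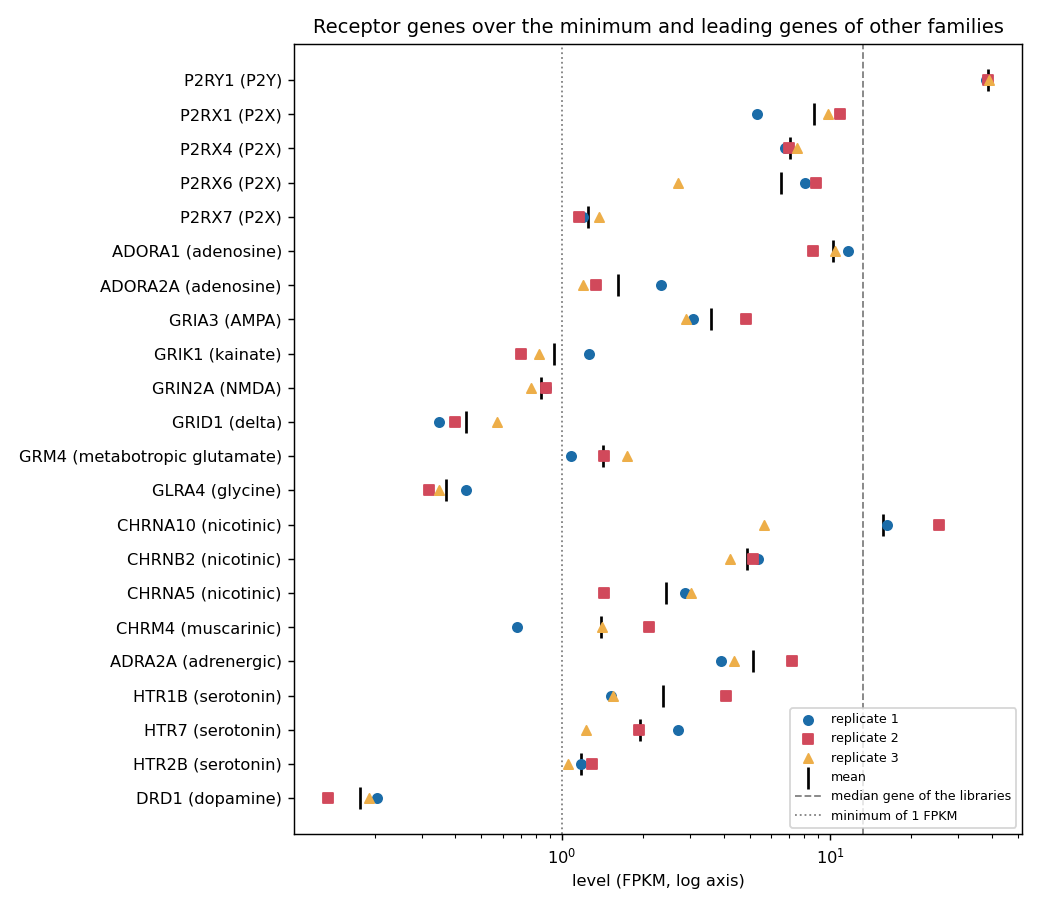
Level in FPKM on a log axis of receptor genes over the minimum and of the highest gene of each further family, with circles, squares and triangles for replicates 1, 2 and 3 and a bar for the mean. The dashed line is the mean of the median gene over the libraries and the dotted line is at 1 FPKM. P2RY1 stands alone right of the dashed line in all 3 libraries, and CHRNA10 spans it from 5.64 to 25.4 FPKM.

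Nicotinic receptors are pentamers opened by acetylcholine. CHRNA10, which encodes the alpha10 subunit known to assemble with alpha9 in hair cells, had the second highest mean of the 99 rows and the widest spread on the log2 scale of those over the minimum. It was at 16.2, 25.4 and 5.64 FPKM, from 322, 494 and 91 reads on a gene model of 630 bases. Replicate 3 was thus the low one, and CHRNA10 was not apart from the median gene (log2 0.00 ± 0.39 SE, limma adjusted p = 0.99) but lay above it without replicate 3 (log2 0.64, adjusted p = 0.0212). Its partner gene CHRNA9 was at 0.0346 ± 0.0234 FPKM, from 10, 10 and 24 reads on a gene model of 15183 bases. Without replicate 3 CHRNA9 was at 0.0211 FPKM. The rank of CHRNA10 and its distance from CHRNA9 rest on these lengths. ADORA2A and ADRA2A had more reads than CHRNA10 in each library.

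CHRNB2, the beta subunit of the main brain receptor, was at 5.39, 5.13 and 4.21 FPKM, whereas CHRNA4, its usual alpha partner, had at most 1 read in any library. CHRNA5, an accessory subunit, was at 2.87, 1.44 and 3.03 FPKM. It lies next to CHRNA3 and CHRNB4, the subunits of the ganglionic receptor, and these were at 0.0201 ± 0.0176 and 0.0356 ± 0.0220 FPKM, so that 1 of the 3 neighbours was over the minimum. CHRNA3 had 10, 4 and 1 reads, with a mean of 0.0105 FPKM without replicate 1. The muscle subunit gene CHRNA1 was at 0.151 ± 0.0453 FPKM and CHRNB3 had at most 10 reads. CHRNB2 was 2.68-fold (limma adjusted p = 3.6e-05) and CHRNA5 5.49-fold (5.8e-05) below the median gene.

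Of the 4 muscarinic receptor genes none was over the minimum. CHRM4, a Gi-coupled receptor, was at 0.680, 2.11 and 1.41 FPKM. CHRM3, the Gq-coupled receptor of glands and smooth muscle, was at 0.356 ± 0.114, CHRM2, the receptor of the heart, at 0.102 ± 0.0408, and the ranges of these 3 did not overlap.

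Ionotropic glutamate receptors were represented above all by GRIA3, a subunit of the fast AMPA receptor. It was at 3.06, 4.83 and 2.90 FPKM, 3.7-fold below the median gene (log2 -1.89 ± 0.16 SE, limma adjusted p = 6.4e-05) and above each of the other 14 glutamate channel genes in every library. GRIA2, the subunit that sets calcium permeability, was at 0.672 ± 0.114, GRIA1 at 0.237 ± 0.0832 and GRIA4 at 0.123 ± 0.0328 FPKM, in that order in 3 of 3 libraries with ranges apart. Kainate receptor genes followed with GRIK1 at 1.26, 0.704 and 0.822 FPKM, GRIK3 at 0.465 ± 0.0890, GRIK4 at 0.255 ± 0.0596 and GRIK2 at 0.0598 ± 0.0428. The GRIK2 level rests on 6, 5 and 14 reads, and its mean was 0.0352 FPKM without replicate 3.

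Of the NMDA receptor genes, GRIN2A was the highest at 0.874, 0.869 and 0.765 FPKM. GRIN1, the subunit that every NMDA receptor needs, had 9, 13 and 12 reads and was at 0.125 ± 0.0302 FPKM, below GRIN2A in each library. GRIN3B was at 0.424 ± 0.182 FPKM, and GRIN2B, GRIN2C and GRIN3A had at most 9 reads. The delta receptor gene GRID1 was at 0.349, 0.398 and 0.570 FPKM, and the scaffold gene GRID2IP had 13, 44 and 8 reads. Among 7 metabotropic glutamate receptor genes, GRM4, a Gi-coupled receptor also known from taste cells, was alone over the minimum at 1.08, 1.43 and 1.74 FPKM, 8.92-fold below the median gene (limma adjusted p = 3.9e-06). Its relatives GRM2, GRM3, GRM5, GRM7 and GRM8 had between 0 and 19 reads per library.

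GABA-A and glycine receptors are chloride channels. GABRD, a subunit of receptors outside synapses, was at 0.399 ± 0.176 FPKM and GABRA4 at 0.310 ± 0.0845, with overlapping ranges. GABRG3 was at 0.183 ± 0.0516, GABRB2 at 0.150 ± 0.0196 and GABRA5 at 0.0782 ± 0.0482 FPKM.

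Lower still were GABRA2, GABRA3, GABRB1, GABRP, GABRR1 and GABRR3, between 0.0064 and 0.0700 FPKM. Glycine receptor genes were led by GLRA4 at 0.438, 0.319 and 0.346 FPKM, from 14, 10 and 9 reads. GLRB, the beta subunit that anchors the receptor at synapses, had 4, 22 and 10 reads, and GLRA1, GLRA2 and GLRA3 had at most 3.

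Monoamine receptors had 5 of 25 genes over the minimum, and each of them lay below the median gene. ADRA2A, a Gi-coupled receptor for noradrenaline and adrenaline, was at 3.91, 7.20 and 4.37 FPKM, 2.62-fold below it (log2 -1.39 ± 0.18 SE, limma adjusted p = 0.00047). Replicate 2 was the highest library for it.

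ADRA2C was at 0.942 ± 0.268, ADRA1B at 0.627 ± 0.309, ADRA1D at 0.581 ± 0.193 and ADRA1A at 0.284 ± 0.0656 FPKM, with overlapping ranges among the first 3. ADRB1, the receptor of the heart, had 1, 18 and 4 reads, and ADRB3, of fat, at most 2. Dopamine receptor genes reached at most 30 reads in a library, with DRD1 at 0.204, 0.134 and 0.191 FPKM and DRD2 at 0.176 ± 0.0733, which did not keep an order. DRD3 was at 0.111 ± 0.0259 FPKM, and DRD4 and DRD5 had at most 1 read.

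Serotonin receptors were led by HTR1B, a Gi-coupled receptor known from nerve endings and vessels, at 1.52, 4.08 and 1.54 FPKM. Replicate 2 was the high one, and without it the mean fell from 2.38 to 1.53 FPKM. HTR7, a Gs-coupled receptor, was at 2.71, 1.94 and 1.22 FPKM and overlapped HTR1B. HTR2B, a Gq-coupled receptor of mesenchymal tissues, was at 1.18, 1.29 and 1.05 FPKM, in a place where the gene table has PSMD1 overlapping it.

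All 3 lay below the median gene, HTR1B 5.97-fold (limma adjusted p = 0.0002), HTR7 6.78-fold (3.2e-05) and HTR2B 10.5-fold (1.3e-06). HTR2A was at 0.279 ± 0.0471 FPKM, and a further row without a symbol carries the same name in the gene table, so its reads may be split. HTR1F was at 0.129 ± 0.0085 and HTR2C at 0.0816 ± 0.0351 FPKM, HTR1D and HTR1E had at most 16 reads, and HTR4, HTR5A, HTR6 and HTR3A, the gene of the serotonin-gated channel, had at most 3.

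Within families, 38 pairs of neighbours in the order of mean level could be formed from the genes with at least 10 reads in every library. The order held in 3 of 3 libraries for 29 pairs, and for 24 the ranges did not overlap. The median SD of log2 values was 0.34 for these 52 receptor genes and 0.18 over all rows of the table with as many reads, which are mostly counted more deeply.

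The libraries did not differ in the same way for every receptor. P2RY1 and HTR2B varied by less than counting error alone gives, and P2RX7 by as much (9.13 against 9.10%), whereas CHRNA10, HTR1B, P2RX6 and CHRNA5 had SDs of 1.10, 0.78, 0.93 and 0.57 on the log2 scale. Of the 52 genes, 24 were highest in replicate 2, 14 in replicate 1 and 14 in replicate 3, or 46.2, 26.9 and 26.9%, against 35.2, 32.5 and 32.3% of all rows with as many reads. Among the 27 G protein-coupled receptors 16 were highest in replicate 2, and among the 25 channel subunits 8. The share for all receptors fell to 40.0% of 30 genes with at least 30 reads and to 30.8% of 13 with at least 100, minimums chosen after seeing the data. The shares of all rows at these minimums were not computed, so whether the fall is particular to receptors was not tested.

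Cell type markers also differed between the libraries, and their part in these differences was not tested. The 11 fibroblast markers, all over the minimum, summed to 3811, 6638 and 3924 FPKM in replicates 1, 2 and 3, and 10 of them were highest in replicate 2. Schwann and lamellar markers summed to 509, 904 and 535 FPKM, with 8 of the 10 over the minimum highest in replicate 2. Most of this sum came from MBP at 182, 333 and 171 and PMP22 at 212, 441 and 256 FPKM. The median over the 10 of log2 level minus the gene's own mean was -0.07, 0.19 and -0.11. Smooth muscle markers summed to 140, 207 and 164 FPKM, with 6 of the 7 over the minimum highest in replicate 2. Keratinocyte markers summed to 4721, 4028 and 4574 FPKM. Of all 12249 rows with at least 10 reads in every library, 3831 were lowest in replicate 3. So were 18 of the 52 receptor genes with as many reads. Another 22 of the 52 were lowest in replicate 1 and 12 in replicate 2, against 4026 and 4392 of all these rows. Of the 18 receptor genes over the minimum, 8 were lowest in replicate 3, CHRNA10 and P2RX6 among them. Of the markers over the minimum, 8 of 11 endothelial, 1 of 9 keratinocyte and 0 of 7 smooth muscle genes were lowest there. The 10 skeletal muscle markers summed to 76.4, 46.5 and 21.8 FPKM, and the 3 of them over the minimum were lowest in replicate 3. These 3 were MYL1 at 53.0, 29.7 and 11.5, ACTA1 at 13.8, 12.9 and 6.67, and TNNC2 at 5.03, 3.72 and 3.43 FPKM. Most of the sum came from MYL1 and ACTA1. The defining muscle regulators MYOD1, MYOG and MYF5 were listed at 0 in every library. Merkel cell markers summed to 206, 273 and 142 FPKM, and 6 of the 7 over the minimum were lowest in replicate 3. CHGB at 142, 188 and 99.6 and CHGA at 29.3, 52.4 and 16.5 FPKM made up most of this sum. ISL1, also lowest in replicate 3, is counted here and again among the sensory neuron markers. Markers of sensory neurons summed to 126, 126 and 71.5 FPKM, most of it from TAC1 and UCHL1, and 5 of the 6 over the minimum were lowest in replicate 3. Of the 7 under it, RET, NEFM and NEFH were also lowest in replicate 3, while ELAVL4, STMN2 and POU4F1 were highest there. POU4F1 had only 1, 0 and 1 reads.

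**Figure D3:**
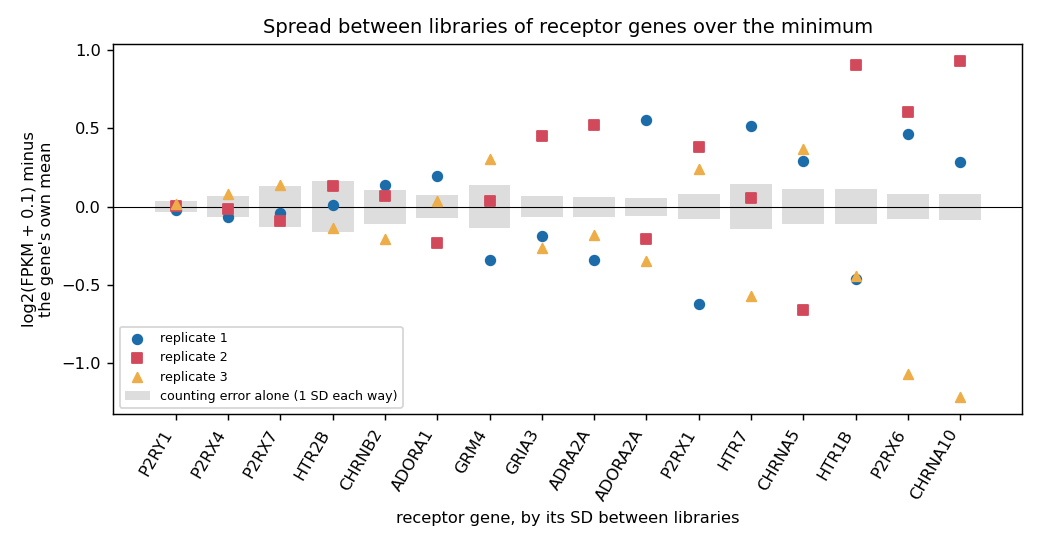
Deviation of log2(FPKM + 0.1) from the gene's own mean (vertical axis) in replicates 1, 2 and 3 (circles, squares, triangles) for receptor genes over the minimum, ordered by SD. Grey bars show 1 SD each way from counting error alone. The points of P2RY1 lie within its bar, and replicate 3 lies more than 1 log2 unit below the mean for P2RX6 and CHRNA10.

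Genes that make, load, take up or break down the transmitters, and those that anchor or transduce the receptors, were taken from 7 lists. Of 119 such genes measured, 74 were over the minimum, 23 lay above the median gene and 43 below it, 8 were not apart from it (limma's moderated test) and 45 were not tested. The background shares of 43.7% above and 43.6% below are of genes tested. They are to be set beside the 74 genes tested here and not beside all 119 measured. In each list below, measured genes not counted as above, below or not apart were not tested.

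Enzymes and transporters of extracellular purines had 10 of 14 genes over the minimum, 6 above the median gene and 4 below. ADK, the kinase that clears adenosine inside cells, was at 76.1, 97.9 and 78.4 FPKM, and NT5E, the surface enzyme that makes adenosine from AMP, at 71.0, 61.6 and 79.7. The adenosine transporter gene SLC29A1 was at 34.1 ± 3.59 FPKM and ENPP2, whose product acts on lysophospholipids and nucleotides, at 27.1 ± 7.09. These 4 lay 6.28-, 5.29-, 2.56- and 1.99-fold above the median gene.

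The ATP-releasing channel gene PANX1 was at 7.54 ± 2.24 FPKM, 1.8-fold below the median gene. The ATP-hydrolysing ectoenzyme genes ENTPD2 and ENTPD1 were at 7.05 ± 2.13 and 1.39 ± 0.322, 1.92- and 9.08-fold below it. ENTPD3, of the same family, was higher at 20.1, 13.4 and 17.3 FPKM, 1.26-fold above the median gene (limma adjusted p = 0.048). SLC17A9, which loads ATP into vesicles, was at 0.245, 0.231 and 0.262 FPKM, lower than every one of these in each library.

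For the other transmitters, the measured genes chosen as defining a transmitter-releasing neuron were under 1 FPKM in every library. Only bill skin was sampled, so these levels do not describe neurons whose cell bodies lie outside it. The same limit applies to P2RX2. In the glutamate list, with 13 genes measured, 4 lay above the median gene, 3 below and 2 not apart, led by the mitochondrial enzyme genes GLUD1 at 89.1 ± 10.6 and GOT2 at 67.2 ± 2.97 FPKM and the glutamine synthetase gene GLUL at 63.6 ± 25.6 FPKM. The vesicular glutamate transporter genes SLC17A6 and SLC17A8 had at most 6 and 2 reads. SLC17A7 was not analysed here.

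In the GABA and glycine list, of 14 genes, 2 lay above the median gene, 5 below and 1 was not apart. SHMT2, which makes glycine in mitochondria, was at 52.1 ± 11.2, ALDH9A1 at 43.1 ± 4.0 and the glycine transporter gene SLC6A9 at 15.0 ± 2.28 FPKM. ALDH5A1, of the GABA breakdown pathway but not acting on GABA itself, was at 10.3 ± 0.958 FPKM. The GABA-synthesising enzyme genes GAD1 and GAD2 had 12, 28 and 3, and 22, 13 and 19 reads. SLC32A1, which loads GABA and glycine into vesicles, had at most 3 reads, and SLC6A5, the neuronal glycine transporter gene, 1 in each library.

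In the acetylcholine list, with 7 genes measured, 3 were over the minimum, of which 2 lay below the median gene and BCHE was not apart from it. BCHE, a cholinesterase gene, was at 14.8 ± 1.12 FPKM, SLC44A1, which carries choline, at 3.36 ± 0.595 and PRIMA1, which anchors acetylcholinesterase, at 2.43 ± 0.277. CHAT, which makes acetylcholine, had at most 6 reads and SLC18A3, its vesicular transporter gene, at most 7. ACHE was not analysed here.

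In the monoamine list, with 16 genes measured, 3 lay above the median gene and 4 below. PTS and QDPR, which make and recycle the cofactor of the monoamine-synthesising enzymes, were at 40.5 ± 2.44 and 20.8 ± 4.89 FPKM. SLC6A4, the serotonin transporter gene, was at 7.45, 6.07 and 4.85 FPKM. TH, the first enzyme of catecholamine synthesis, had no read in any library, DBH had at most 1, and the serotonin-synthesising enzyme genes TPH1 and TPH2 had at most 16 and 18.

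**Figure D4:**
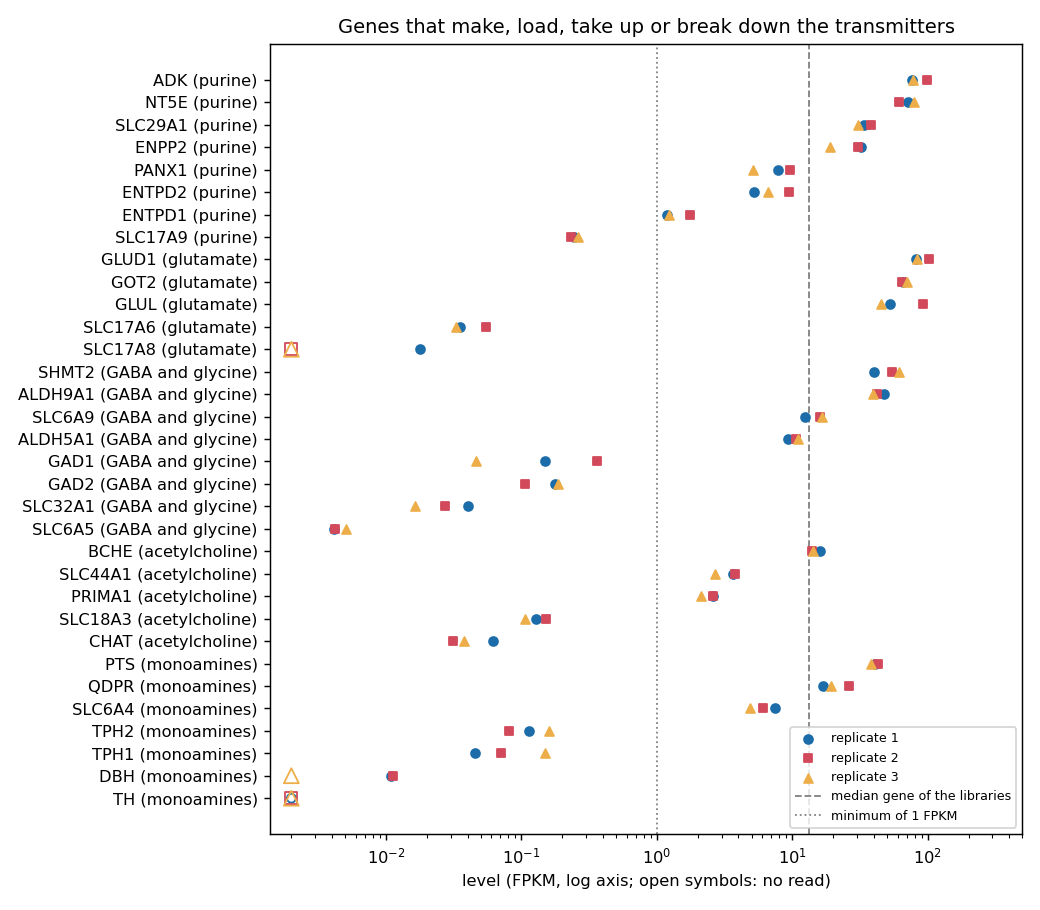
Level in FPKM on a log axis, in replicates 1, 2 and 3 (circles, squares, triangles), of genes among the 4 highest of each transmitter list and of the genes chosen as defining each transmitter; open symbols at the left edge are libraries with no read. The dashed line is the mean of the median gene over the libraries and the dotted line is at 1 FPKM. TH has no read in any library, and GAD1, GAD2, CHAT, SLC17A6 and SLC17A8 lie left of the dotted line in all 3.

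Among 29 receptor accessory and anchoring genes, 16 were tested, of which 1 lay above the median gene, 14 lay below and 1 was not apart. The scaffold gene DLG1, widely expressed in epithelia, was at 23.6 ± 0.610 FPKM and 1.78-fold above it. AGRN and LRP4, the signal and its receptor that gather nicotinic receptors at the muscle endplate, were at 14.4 ± 2.91 and 8.73 ± 3.09, and HOMER2, which binds metabotropic glutamate receptors, at 9.21 ± 1.07. RAPSN, the anchor of muscle nicotinic receptors, had at most 7 reads.

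Of 26 genes for G proteins and their effectors, 21 were tested, of which 7 lay above the median gene, 11 below it and 3 were not apart. GNAI3 and GNAI2, Gi subunits such as ADORA1 and ADRA2A use, were at 313 ± 11.4 and 38.6 ± 8.35 FPKM. GNA11, a Gq-family subunit of the kind P2RY1 uses, was at 28.4, 27.1 and 29.5, 2.13-fold above the median gene. RGS2, which shortens Gq signals, was at 27.6 ± 5.48.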

How the data were processed

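Strand-specific libraries were made from poly(A) RNA of bill skin in 3 biological replicates, per the labels' protocols. The authors deposited 1 raw count per gene and library and, in columns of their own, FPKM, as the headers of the table state. STAR 2.5.4b, Trimmomatic 0.36, CASAVA 1.8.2, edgeR 3.22.3 and featureCounts (Subread 1.6.2) are named, with no role, per the submitters' processing notes. Neither the genome build nor the annotation is given in the sources used here. Gene lengths implied by counts, FPKM and TMM factors were whole numbers, within 0.01 bases, for 100% of 14343 genes with reads, so the FPKM carry TMM scaling.

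Members and gene lists were chosen with earlier results of these data known. Log2(FPKM + 0.1) minus the library's median over genes at 1 FPKM or more in each of the 3 libraries was tested with limma 3.58.1 (R 4.3.3), two-sided, Benjamini-Hochberg over all 10605 genes, threshold 0.05. Folds of low genes are understated by the pseudocount. A fixed rule named all receptor genes and, per list, the 4 highest and the defining genes. A few genes under this rule enter the fits and counts but are not reported here. MED12L, LRRC74B, PSMD1, P2RY2, TAC1, UCHL1, ELAVL4, STMN2, POU4F1 and the muscle regulators were named after their values or positions were seen. So were RET, NEFM, NEFH, ENTPD3, MYL1, ACTA1, TNNC2, MBP, PMP22, CHGB, CHGA and ISL1. A gene table for assembly IASCAAS_PekinDuck_T2T, used only for names, neighbours and overlaps, holds 2059 of the 3347 symbol-free identifiers by number. Of the 99 receptor symbols 93 are in it. There protein-coding genes also overlap ADORA2B, GRIN3B, DRD1, GRM2 and CHRM5, so reads of these could be assigned to another gene. Coefficients of variation from counting error assume Poisson counts; limits from 3 reads cover counting error only. Alternatives included edgeR 4.0.16 on counts and DESeq2 1.42.0 size factors. Receptor protein and promoter sequences were not used here.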

Additional observations from a re-analysis of the deposited data

How the results depend on the processing

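The counts of receptor genes above and below the median gene, 1 and 16, were the same under pseudocounts of 1 and 0.01, DESeq2 size factors, scaling by total counts and edgeR's quasi-likelihood test. The minimum, which sets both the genes tested and the median gene, moved them. Of 50 receptor genes tested at a minimum of 0.1 FPKM, 45 were below. At 5 FPKM 3 of 5 were below, and without a minimum 91 of 97, where 2 were above. In the main test 18 were tested. The shares of all genes above and below at these other minimums are not given here, so whether the moves are particular to receptors was not tested. Leaving out 1 replicate gave 1 to 2 above and 15 to 16 below. For the pathway genes, 23 above and 43 below of 74 tested became 15 and 20 of 42 at 5 FPKM. Without a minimum 32 were above and 71 below of 117 tested. For these genes too, the shares of all genes at these minimums are not given here. With 1 replicate left out, 19 to 23 pathway genes were above and 42 to 43 below. Receptor genes over the minimum numbered 50 at 0.1 and 5 at 5 FPKM, and 18 to 19 with 1 replicate left out. With at least 30 reads 30 were detected, and 52 to 58 with at least 10 and 1 replicate left out. The median SD of log2 values, 0.34, was 0.12 with a pseudocount of 1, and 0.26 to 0.31 over pairs of libraries. Neighbour pairs with ranges apart, 24 of 38, were 27 to 29 over pairs of libraries. Ranges of 2 libraries are never wider than those of 3, and the genes with at least 10 reads also changed. These values, and the SDs over 2 libraries, are thus not directly comparable with those over 3.

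Of 185 values of single genes under alternatives, 171 kept their direction and their side of the threshold, 7 lost and 1 gained the call. Another 6 changed direction: ADORA1 was at log2 0.011 at a minimum of 0.1 (limma adjusted p = 0.934) and 0.42 without one, P2RX1 was at 0.13 without one (limma adjusted p = 0.6), and CHRNA10, which was not called, at -0.60 at 5 FPKM and from -0.45 to 0.64 with 1 replicate left out, below 0 without replicate 1 or 2. P2RX4 and P2RX6 were not apart without a minimum (limma adjusted p = 0.407 and 0.364). No paired analysis was possible because there is 1 group. Genes with fewer than 10 reads are limited by counting error.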
